A study of Mus musculus with 4 samples.

Results

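The dual specificity MAP kinase phosphatases described here are 10 genes chosen by name, Dusp1, Dusp2, Dusp4, Dusp5, Dusp6, Dusp7, Dusp10, Dusp14, Dusp16 and Dusp22, and they stand beside 18749 genes that could be named on the arrays. A named probe was found for 9 of the 10, through 11 probes of 41173, and Dusp5 had no named probe here, so no level is given for it. Transcripts were measured on 4 Agilent 1-colour whole mouse genome arrays, 1 array for each of 4 groups, in T cells that had been grown from naive splenic CD4 T cells of C57BL/6J mice labelled female. The study compared WT cells with cells labelled Bach2 KO to learn what Bach2, a transcriptional repressor that binds AP-1 type sites, does in helper T cells. Every culture was first activated for 2 days through the T cell receptor (anti-TCR-β, 3 μg/ml) and CD28 (mAb, 1 μg/ml) and was then kept for 3 more days, with IL-2 at 2.5 ng/ml.

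The groups WT (-) and KO (-) were taken before re-stimulation, and WT (+) and KO (+) after 4 h on immobilized anti-TCR-β mAb without added IL-2. The KO mice carried floxed alleles of Bach2 on both chromosomes and a CD4-Cre transgene, whose promoter is active in T cells from their development in the thymus, and the array labels did not say whether the WT donors also carried CD4-Cre. Mice of the study were 8 to 12 weeks old. With 1 array per group no difference below has a replicate check, no p-value was computed, and a difference between cultures, mice or hybridizations cannot be told apart from one of genotype or re-stimulation.

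MAP kinases (ERK, JNK and p38) carry signals from the T cell receptor to the nucleus and are active while both a threonine and a tyrosine of their activation loop carry phosphate. Dual specificity phosphatases remove both phosphates, and several of their genes are themselves switched on by the signal, which makes them a negative feedback. The family differs in location and preference: some members are nuclear and inducible, some are cytoplasmic and select ERK, some prefer JNK and p38, and the small atypical members lack the domain that binds the kinase.

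Signals below are the scanner's background-corrected intensities of 1 spot. A log2 level is the log2 signal after the array's own 75th percentile was subtracted, and a log2 difference is taken between 2 such levels, so the ratio of raw signals is not the fold. The value after ± is the error that the scanner software assigned to the spots, combined over the arrays compared, and covers no variation between cells or mice. Counts use a rule of size, at least 2-fold (a log2 difference of 1), read against the share of all measured genes past it. A gene counts as measured in a comparison if 1 or both of the arrays flagged its probe as well above background.

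On each array 53.6% to 54.0% of the probes passed the scanner's flag for well above background, and 0 spots were saturated. All 9 T cell markers with a probe were well above background on every array, with a summed level of 598 to 649 times the 75th percentile of the array, whereas the B cell markers Cd79a, Ms4a1 and Pax5 and the myeloid markers Lyz2, Itgam and Fcgr1 were so on none. The cells labelled KO differed from the WT cells in more than Bach2. Of 8 mast cell and basophil markers with a probe, 5 were well above background on each KO array against 1 on WT (-) and 0 on WT (+), and their summed level was 2.44 and 2.54 times the 75th percentile on the KO arrays against 0.169 and 0.194 on the WT arrays, with Ms4a2, Mcpt4 and Tpsb2 well above background on none. Of 4 Y-linked genes, 3 (Eif2s3y, Ddx3y and Kdm5d) were well above background on both KO arrays and 0 on the WT arrays, against the label female on all 4, with Uty so on none. The part of either difference in the results below was not tested. The probe for Bach2 gave signals of 2932 on WT (-) and 2633 on KO (-), and of 3310 on WT (+) and 3080 on KO (+), with log2 differences of -0.15 and -0.28, so it did not separate the genotype labels; where it lies relative to the floxed exons is not given in the sources used here.

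The members differed in their response to re-stimulation. In both genotypes Dusp2 and Dusp4 were higher after 4 h and Dusp7 lower, Dusp1, Dusp6 and Dusp22 stayed within 2-fold, and Dusp10 and Dusp14 were more than 4-fold higher on the WT pair of arrays but under 1.5-fold on the KO pair. In WT, 4 of 8 measured members were at least 2-fold higher, where 13.3% of 12244 measured genes were, and 1 of 8 was at least 2-fold lower, where 13.7% of all were. In KO, 3 of 9 were at least 2-fold higher, where 12.5% of 12282 were, and 1 of 9 at least 2-fold lower, where 13.1% were. Dusp16 was measured in KO alone, through KO (+), so it could only count as higher, as a bound. With both KO arrays required to be well above background, 2 of 8 were at least 2-fold higher, where 1164 of 11161 genes were. The median log2 response of the measured members was 1.41 in WT and 0.29 in KO, against -0.02 and 0.00 over all measured genes. Without Dusp16, over the 8 members well above background on both KO arrays, the KO median was 0.24. The WT median lies between Dusp22 at 0.61 and Dusp10 at 2.22 and stands near no member's value. In RNA from a whole culture, a change per cell and a change in the share of cells that express a gene cannot be told apart.

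**Figure D1:**
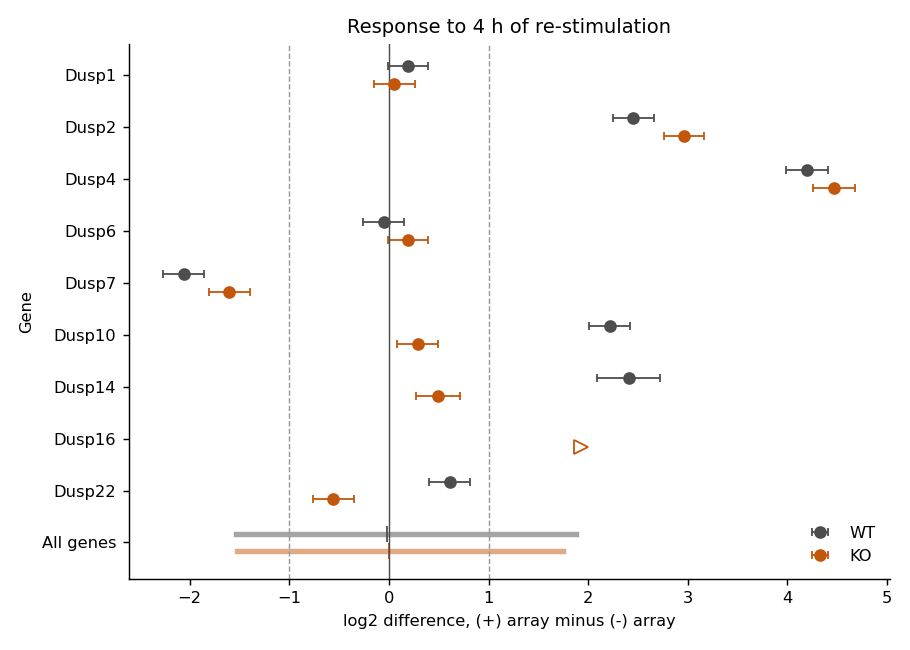
Log2 response to 4 h of re-stimulation ((+) array minus (-) array) of each MAP kinase phosphatase in WT (grey) and KO (orange), with bars for the scanner's spot error, an open arrowhead for a lower bound, dashed lines at 2-fold, and in the bottom row the 5th to 95th percentile and median over all measured genes. Dusp2 and Dusp4 lie to the right of the 2-fold line in both genotypes, Dusp7 to the left in both, and Dusp10 and Dusp14 past it in WT alone.

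Among the nuclear inducible members, Dusp4, which acts on ERK and JNK, had the widest range of the members measured on all 4 arrays. Its signals were 98.0 on WT (-), 104 on KO (-), 1290 on WT (+) and 1870 on KO (+). The (+) arrays stood far above the (-) arrays, with no overlap between them. The log2 response was 4.20 ± 0.21 in WT (18.4-fold) and 4.47 ± 0.21 in KO (22.1-fold), and 1.07% and 0.651% of measured genes differed by as much in either direction. KO was higher than WT by 0.36 ± 0.20 after re-stimulation and by 0.09 ± 0.22 before it, which was within the spot error.

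Dusp2, a nuclear phosphatase of ERK and p38 that is abundant in activated leukocytes, had signals of 11934 on WT (-), 11462 on KO (-), 46886 on WT (+) and 72587 on KO (+). Its log2 response was 2.45 ± 0.20 in WT (5.48-fold) and 2.96 ± 0.20 in KO (7.80-fold). The WT and KO arrays before re-stimulation differed by -0.05 ± 0.20, within the spot error, and those after it by 0.46 ± 0.20, which was under 2-fold. In order of level, KO (-) and WT (-) were not separated, WT (+) was higher and KO (+) was the highest.

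Dusp1, an immediate early gene whose phosphatase acts on p38, JNK and ERK, had signals of 679 on WT (-), 525 on KO (-), 556 on WT (+) and 444 on KO (+). Its log2 response at 4 h was 0.19 ± 0.20 in WT and 0.06 ± 0.20 in KO, both within the spot error, and the sign of each turned with the scaling, between -0.10 and 0.49 in WT and between -0.21 and 0.31 in KO. Both KO arrays lay below both WT arrays, by -0.36 ± 0.20 (log2) on the (-) pair and -0.50 ± 0.20 on the (+) pair, under 2-fold in each. Differences as large in either direction were found for 29.0% of measured genes on the (-) pair and 24.6% on the (+) pair. With scaling to Cd3e the difference on the (-) pair was -0.23. The 4 h point was the only one after re-stimulation, so an earlier peak could not be seen.

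The sequence before the start of Dusp1 and Dusp2 is shown because of this contrast between 2 inducible genes of the same class. It was taken from the RefSeq promoter table (GRCm38.p6) as the 250 bases before the start of the gene, on the gene's strand, at chr17:26508473-26508722, minus strand, for Dusp1 and chr2:127335909-127336158, plus strand, for Dusp2. Capitals mark the motifs searched on both strands: AP-1 (TGAGTCA or TGACTCA), the cyclic AMP response element CRE (TGACGTCA) and its core (TGACG, which overlaps it), the ETS site CCGGAA, the NFAT core TTTCC and the CArG box, by name, of serum response factor.
Dusp1: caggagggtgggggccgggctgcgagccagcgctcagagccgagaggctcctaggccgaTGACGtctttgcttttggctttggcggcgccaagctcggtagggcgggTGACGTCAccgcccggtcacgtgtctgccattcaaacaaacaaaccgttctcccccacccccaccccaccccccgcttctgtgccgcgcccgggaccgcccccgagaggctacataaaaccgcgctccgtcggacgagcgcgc
Dusp2: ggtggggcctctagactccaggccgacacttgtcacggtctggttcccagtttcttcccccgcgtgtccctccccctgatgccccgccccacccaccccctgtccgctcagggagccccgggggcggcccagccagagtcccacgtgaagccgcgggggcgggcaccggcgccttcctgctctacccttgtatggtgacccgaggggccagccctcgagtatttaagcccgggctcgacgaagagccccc
Dusp1 held the whole CRE, 143 to 136 bases before the start, which 1.55% of 32851 promoter windows of the same length held, and a further core at 191 to 187. Dusp2, with the larger response, held none of the 6 motifs in these 250 bases. The AP-1 letters were in 4.46% of all windows and in 0 of the 9 members with an entry; Dusp4 had no entry. A match here is a run of letters and was not tested as a binding site.

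The cytoplasmic members that select ERK went different ways. Dusp7 had signals of 6384 on WT (-), 5923 on KO (-), 1099 on WT (+) and 1588 on KO (+), and the (+) arrays lay below the (-) arrays in each genotype. Its log2 response was -2.06 ± 0.20 in WT (4.16-fold lower) and -1.60 ± 0.20 in KO (3.03-fold lower). It was the only measured member more than 2-fold lower after re-stimulation in either genotype.

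KO and WT differed for Dusp7 by -0.10 ± 0.20 before re-stimulation and by 0.36 ± 0.20 after it. Dusp6, its close relative and a well known ERK-induced feedback gene, had signals of 20460 on WT (-), 20673 on KO (-), 14142 on WT (+) and 19200 on KO (+). The response of Dusp6 was -0.05 ± 0.20 in WT and 0.19 ± 0.20 in KO, its 4 levels spanned 0.27 on the log2 scale, and each neighbour in their order lay within the spot error of the next. None of its small differences before re-stimulation or in response had a settled direction: over 8 alternatives the response ranged from -0.35 to 0.24 in WT and from -0.07 to 0.45 in KO, and the genotype difference before re-stimulation from -0.04 to 0.16.

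The promoter window of Dusp7 (GRCm38.p6, chr9:106368382-106368631, plus strand) is shown for the member that was lower. It held none of the 6 motifs, and 77.2% of its bases were G or C. That of Dusp6 held the NFAT core, at 154 to 150 and at 145 to 141 bases before the start, as 55.6% of all windows did.
Dusp7: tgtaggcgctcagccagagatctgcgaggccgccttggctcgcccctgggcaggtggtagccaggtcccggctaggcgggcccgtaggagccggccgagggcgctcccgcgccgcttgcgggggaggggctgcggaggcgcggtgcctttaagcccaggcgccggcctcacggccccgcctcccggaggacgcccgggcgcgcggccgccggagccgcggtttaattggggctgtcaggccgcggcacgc

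**Figure D2:**
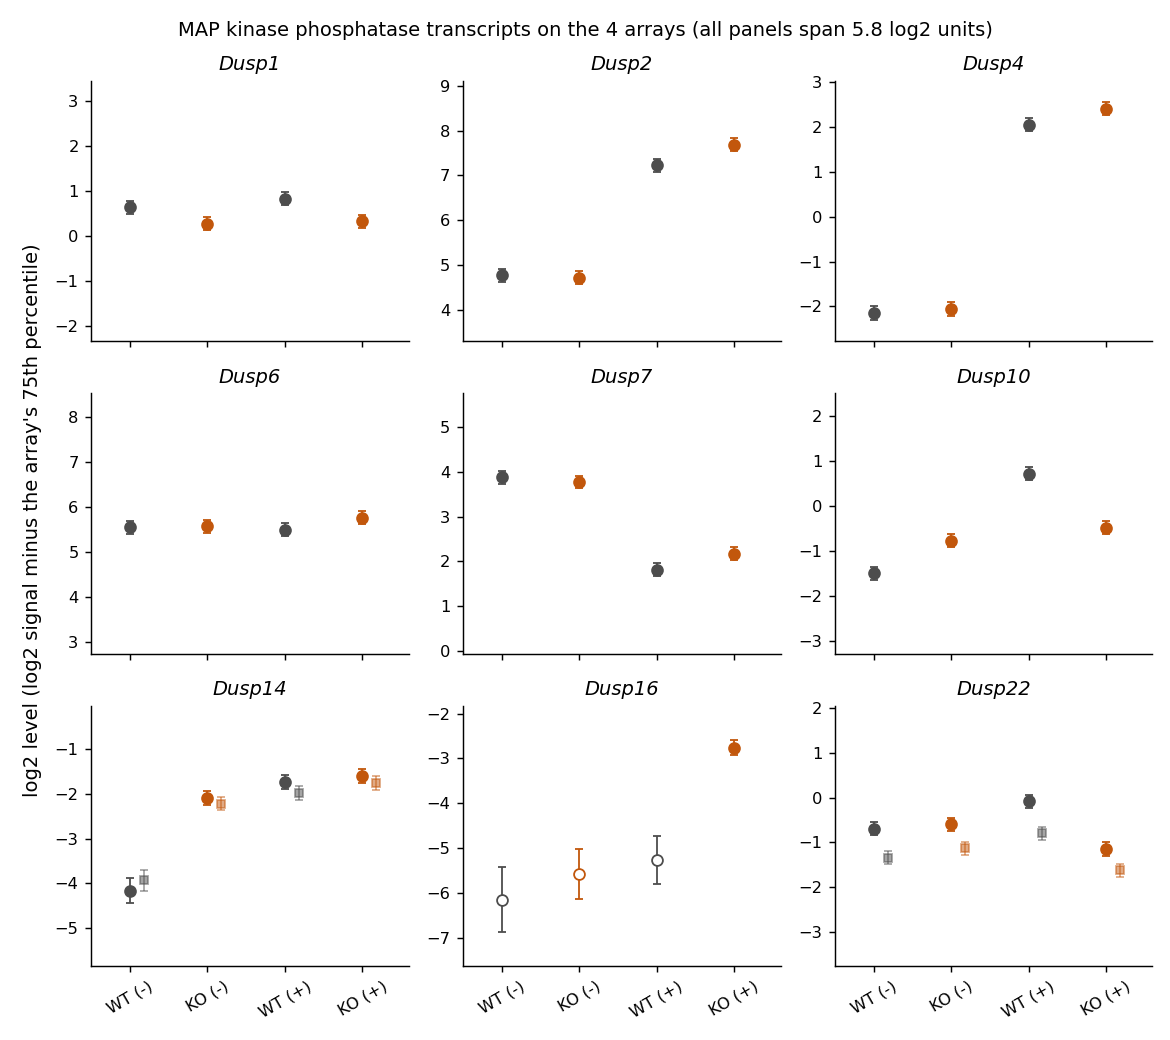
Log2 level of each measured member on the 4 arrays (WT grey, KO orange; (-) before and (+) after re-stimulation), with the scanner's spot error as bars, open symbols where the spot was not well above background, and pale squares for the second probe of Dusp14 and Dusp22. Every panel spans the same range of log2 units but has its own offset, since levels are not comparable between probes; the KO (+) point of Dusp10 lies near KO (-), and WT (-) is the low point of Dusp14.

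The members that prefer JNK and p38, Dusp10 and Dusp16, went opposite ways between the genotypes after re-stimulation, Dusp16 only as a bound. Dusp10, which dephosphorylates p38 and JNK and has been linked to T cell cytokine production, had signals of 155 on WT (-), 254 on KO (-), 514 on WT (+) and 253 on KO (+). The KO signals were nearly equal, and the WT signals stood on either side of them. The log2 response was 2.22 ± 0.21 in WT (4.64-fold) and 0.29 ± 0.21 in KO (1.22-fold).

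Before re-stimulation Dusp10 was higher in KO than in WT by 0.73 ± 0.21 (1.65-fold), and after it lower by a log2 difference of -1.20 ± 0.21 (2.29-fold). A difference of that size in either direction was found for 12.4% of measured genes before and 6.60% after. The order of its levels was WT (-), KO (-), KO (+) and WT (+), and each step exceeded the spot error.

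Dusp16, which acts on JNK and p38, was at the lower end of what these arrays could measure. Its signals were 6.16 on WT (-), 9.10 on KO (-), 8.18 on WT (+) and 52.1 on KO (+), and only the last was well above background. KO (+) was at least 3.18-fold higher than WT (+) and at least 3.82-fold higher than KO (-), as bounds against the lowest signal well above background on the dimmer array (14.5 and 16.8). The first 3 arrays gave no order and no difference for it. With background correction by normexp and quantile normalization both bounds fell under 2-fold, to log2 differences of 0.76 and 0.70. That correction adds an offset of 50 to every signal. The offset shrinks the folds of signals as dim as these by construction, so the fall was partly fixed by the setting.

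The promoter window of Dusp10 (GRCm38.p6, chr1:184034131-184034380, plus strand) is shown because its response differed 3.79-fold between the genotypes. It held none of the 6 motifs.
Dusp10: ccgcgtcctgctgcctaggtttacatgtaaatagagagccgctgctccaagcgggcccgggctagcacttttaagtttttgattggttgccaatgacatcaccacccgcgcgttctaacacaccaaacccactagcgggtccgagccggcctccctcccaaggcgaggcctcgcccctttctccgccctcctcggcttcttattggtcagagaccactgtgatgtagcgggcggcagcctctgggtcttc

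Dusp14, a small atypical phosphatase that restrains T cell receptor signalling, was the only member more than 2-fold different between the genotypes before re-stimulation. Its signals were 24.4 on WT (-), 101 on KO (-), 92.9 on WT (+) and 116 on KO (+). WT (-) stood apart, and the log2 levels of the other 3 spanned 0.49. KO (-) was above WT (-) by a log2 difference of 2.06 ± 0.32 (4.16-fold), and KO (+) above WT (+) by 0.14 ± 0.22, within the spot error.

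The log2 response of Dusp14 was 2.41 ± 0.32 in WT (5.30-fold) and 0.49 ± 0.22 in KO (1.40-fold). The difference before re-stimulation and the response in WT share the WT (-) array, whose signal of 24.4 was not far above the lowest signal well above background there (15.1). A second probe of the same transcript gave 28.6, 93.2, 78.8 and 104 in the same order of arrays, with log2 differences of 1.71 before re-stimulation and 1.94 for the WT response. With normexp and quantile normalization both values for the gene fell under 2-fold, to 0.76 and 0.83. The offset of 50 in that setting shrinks folds at signals this dim by construction, so the fall is no separate test of either value.

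Dusp22, an atypical phosphatase that activates JNK signalling and dephosphorylates the kinase Lck in T cells, had signals of 268 on WT (-), 288 on KO (-), 294 on WT (+) and 159 on KO (+). KO (+) was the low array. KO was lower than WT after re-stimulation by a log2 difference of -1.06 ± 0.21 (2.08-fold) and differed by 0.11 ± 0.21 before it.

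The log2 response of Dusp22 was 0.61 ± 0.21 in WT and -0.56 ± 0.21 in KO, so the 2 genotypes moved in opposite directions, each by under 2-fold. Its second probe gave signals of 172, 198, 180 and 115 and a log2 difference after re-stimulation of -0.83, which is under 2-fold. The 2-fold call was also lost with the mean over both probes (-0.94), with scaling to Cd3e (-0.96) and with normexp and quantile normalization (-0.86).

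Of the atypical members, Dusp14 held 1 motif in its window (GRCm38.p6, chr11:84068358-84068607, minus strand), the ETS letters at 65 to 60 bases before the start, found in 12.03% of all windows. The sequence is shown because it is the only window with a motif among the members at least 2-fold different between the genotypes on probes well above background on all 4 arrays. Dusp22, like Dusp2, Dusp7 and Dusp10, held none.
Dusp14: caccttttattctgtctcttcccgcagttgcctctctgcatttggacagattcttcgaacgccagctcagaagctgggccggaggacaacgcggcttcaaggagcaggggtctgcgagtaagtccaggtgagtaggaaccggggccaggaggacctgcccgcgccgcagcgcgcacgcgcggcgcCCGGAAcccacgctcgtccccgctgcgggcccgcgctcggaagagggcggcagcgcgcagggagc

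Between the genotypes, few members differed by 2-fold. Before re-stimulation 1 of 8 measured members was at least 2-fold higher in KO (Dusp14), where 5.27% of 12105 genes were, and 0 of 8 at least 2-fold lower, where 2.83% were. After it 1 of 9 was at least 2-fold higher (Dusp16, as a bound), where 5.17% of 12341 were, and 2 of 9 at least 2-fold lower (Dusp10 and Dusp22), where 3.86% were. The median log2 difference of the members was 0.06 before and 0.27 after, against 0.00 and 0.02 over all measured genes. Without Dusp16 the median after re-stimulation was 0.20. No member was past 2-fold in both states.

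**Figure D3:**
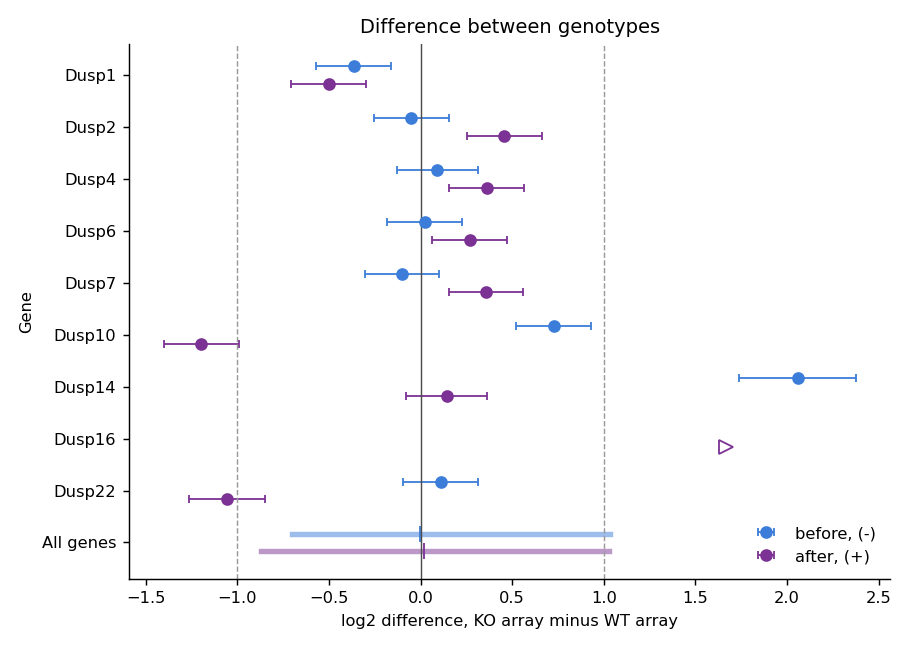
Log2 difference between genotypes (KO array minus WT array) of each member before (blue) and after (purple) re-stimulation, with bars for the scanner's spot error, an open arrowhead for a lower bound, dashed lines at 2-fold, and the 5th to 95th percentile and median of all measured genes in the bottom row. Dusp14 is past 2-fold before re-stimulation, and Dusp10, Dusp22 and the bound of Dusp16 after it.

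The difference between the responses, KO minus WT, can be had for the 8 members well above background on all 4 arrays, and it equals the change of the genotype difference from before to after re-stimulation. It was -1.92 ± 0.29 for Dusp10 (3.79-fold), -1.92 ± 0.39 for Dusp14 (3.77-fold) and -1.17 ± 0.29 for Dusp22 (2.25-fold). Thus 3 of 8 were at least 2-fold lower in KO, where 3.00% of 10810 genes were, and 0 of 8 at least 2-fold higher, where 1.82% were. A difference as large in either direction was found for 0.685% of genes at the value of Dusp10, 0.703% at that of Dusp14 and 3.23% at that of Dusp22.

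The other members stayed within 2-fold on this measure. Dusp2 had 0.51 ± 0.29, Dusp7 0.46 ± 0.29, Dusp4 0.27 ± 0.30, Dusp6 0.25 ± 0.29 and Dusp1 -0.14 ± 0.29, and the last 3 were within the spot error. The median of the 8 was 0.05, against 0.00 over all genes, with 4 values above 0 and 4 below. The second probes gave -1.49 for Dusp14 and -1.04 for Dusp22. With normexp and quantile normalization Dusp14 and Dusp22 fell under 2-fold, to -0.63 and -0.96, and Dusp10 stayed past it at -1.58. The offset of that setting shrinks the value of a dim probe such as that of Dusp14 by construction.

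**Figure D4:**
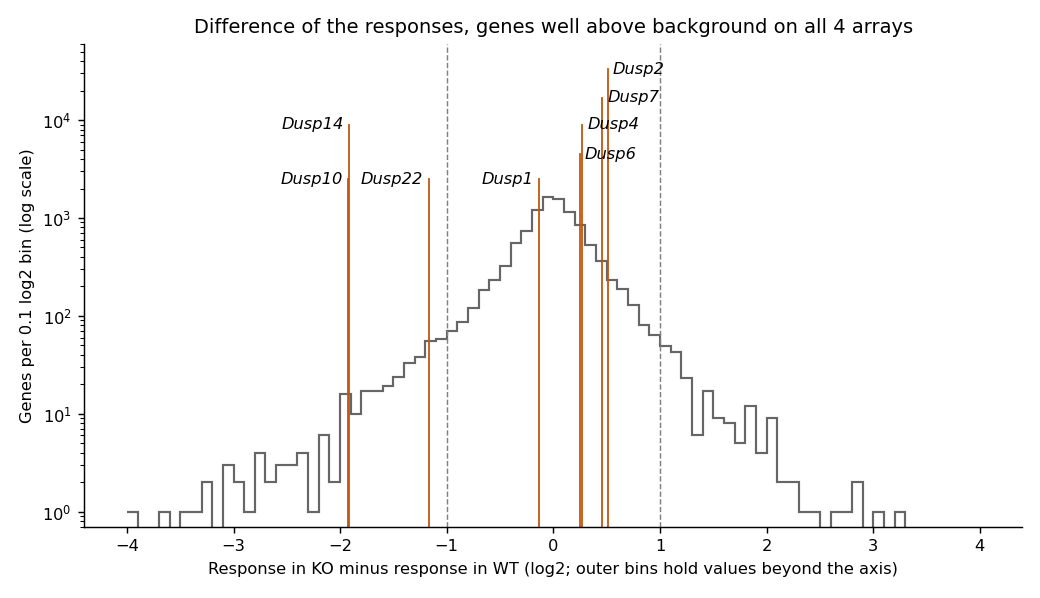
Outline of the number of genes per bin of the response in KO minus the response in WT (log2, x axis; y axis on a log scale), over the 10810 genes measured on every array, with orange lines at the 8 members and dashed lines at 2-fold. Dusp10, Dusp14 and Dusp22 lie left of the lower dashed line and the other 5 members between the lines.

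The genes whose 4 levels, centred on their mean, lay nearest to those of Dusp4, Dusp2 and Dusp14, which had the widest range among the members well above background on all 4 arrays, were sought among 10809 genes. For Dusp4 they were Trib1, Nkain1 and Serpinb6b, at Euclidean distances of 0.34, 0.35 and 0.37 on the log2 scale. For Dusp2 they were Dtx4, Ece1 and Pakap, at 0.11, 0.19 and 0.20. For Dusp14 they were Cmpk2, Tlr7 and Zbp1, at 0.11, 0.24 and 0.27, and their log2 differences between the genotypes before re-stimulation were 1.98, 1.92 and 2.07. Values near that of Dusp14 follow from the choice by these same 4 levels, so they are no separate result. A profile of 4 levels is short, so many genes can lie close by.

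The members were set beside the rest of the family and the pathway. Of 14 other dual specificity phosphatases, with between 8 and 10 measured in each comparison, 3 of 10 were at least 2-fold higher after re-stimulation in WT (13.3% of all genes) and 1 of 8 in KO (12.5% of all genes), and 0 passed 2-fold between WT and KO in either state, where 2.83% to 5.27% of all genes did in each direction. Scaling to Cd3e gave 1 of 8 higher in KO before re-stimulation and 1 of 10 after it. Quantile normalization gave 1 of 10 higher in KO after it. Numbers this small do not set the list apart from all genes. Dusp12 was higher by 1.48 in WT and 1.06 in KO, against 2.45 and 2.96 for Dusp2. The KO value of Dusp12 was under 2-fold with scaling to the median (0.79) and with normexp and quantile normalization (0.96), and those settings left 1 of 10 higher in WT. Of 8 phosphatases of other classes that act on MAP kinases, 1, Ptpn5, was at least 2-fold higher after re-stimulation in each genotype, by 2.22 in WT and 2.98 in KO. It was 1 of 7 measured in WT and 1 of 8 in KO, beside 13.3% and 12.5% of all genes. Ptpn7, a tyrosine phosphatase of ERK in blood cells, was lower by a log2 difference of -0.72 in WT and -0.39 in KO.

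Of 20 measured MAP kinases and upstream kinases, which hold the targets of the phosphatases, 2 were at least 2-fold higher and 5 lower after re-stimulation in WT, and 3 higher and 3 lower in KO, beside 13.3% and 13.7% of all genes in WT and 12.5% and 13.1% in KO. Those counts are near the shares over all genes, except for the 5 lower in WT, which is above the share. That count was 6 with scaling to the median and 2 with scaling to Cd3e. Map2k3, which activates p38, was higher by 3.47 in WT and 2.79 in KO. Map2k6, its relative, was lower by log2 differences of -2.16 and -2.05 (in KO -0.85 with the mean over probes), and Mapk3, which encodes ERK1, by -2.06 and -1.91. Between the genotypes 0 of 20 were 2-fold different before re-stimulation, where 5.27% of all genes were higher in KO and 2.83% lower. After it 1 of 20 was, Mapk13 (p38δ), where 5.17% of all genes were higher and 3.86% lower. Mapk13 was higher in KO by 1.31 but by 0.98, under 2-fold, with normexp and quantile normalization. Of 15 measured MAP kinase substrates, 0 differed by 2-fold between the genotypes before re-stimulation and 2 after, both higher in KO, beside the same shares of all genes. Mapkapk2, a kinase downstream of p38, was higher by 1.10, and Rps6ka5 by at least 1.38, as its WT (+) signal was not well above background. The bound of Rps6ka5 was 0.39 with normexp and quantile normalization, whose offset shrinks the folds of signals this dim. Rps6ka5 could only count as higher. With both (+) arrays required, 1 of 14 substrates was higher in KO, where 436 of 11284 genes were. Scaling to Cd3e gave 1 of 15 higher in KO before re-stimulation.

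Transcripts that ERK is known to induce made up the last list. After re-stimulation 14 of 15 measured genes of that list were at least 2-fold higher in WT (13.3% of all genes). In KO 14 of 16 were (12.5% of all genes). The medians were 3.96 and 2.59, against 1.41 and 0.29 for the listed phosphatases. Genes measured through the (+) array alone, such as Fosb and Egr3, could only count as higher, as bounds. Among genes flagged on the (-) and the (+) array alike, 10 of 11 were at least 2-fold higher in WT, where 1207 of 11112 genes were. In KO 11 of 12 were, where 1164 of 11161 genes were. The medians were then 3.11 and 2.59, against 1.41 and 0.24 for the listed phosphatases. Egr2 was higher by 10.04 in WT and 9.33 in KO, and Egr1 by 6.76 and 5.17. Before re-stimulation 6 of 12 were at least 2-fold higher in KO than in WT and 0 lower, where 5.27% and 2.83% of all genes were, with Egr1 at 1.47, Phlda1 at 1.41 and Spry1 at 1.21. One of the 6, Fosl1, was measured through KO (-) alone and could only count as higher, as a bound. With both (-) arrays required, 5 of 11 were higher and the median was 0.77, where 425 of 11287 genes were higher. With normexp and quantile normalization, whose offset shrinks the folds of dim signals, 2 of 12 were at least 2-fold higher in KO. The median of the list then fell from 0.92 to 0.33, and Egr1 was at 0.85. After re-stimulation 1 of 16 was higher (Spry4, by at least 1.23, or 0.57 with normexp and quantile normalization) and 3 were lower, Fosb at -1.81, Egr3 at -1.46 and Fos at -1.39, where 5.17% and 3.86% of all genes were. Spry4 was measured through KO (+) alone and could only count as higher. With both (+) arrays required, 0 of 15 were higher and 3 lower, where 436 and 369 of 11284 genes were.

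**Figure D5:**
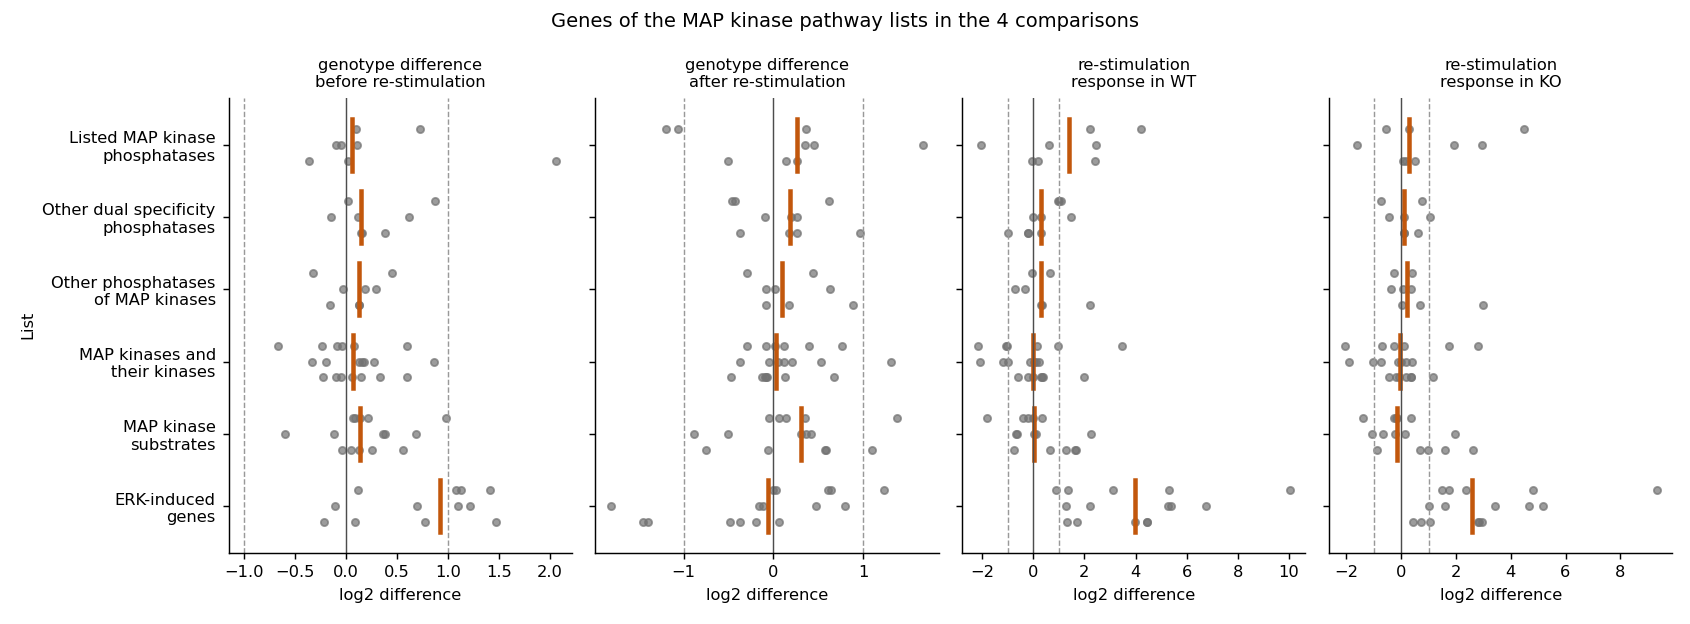
Log2 differences of the measured genes (grey points) of 6 MAP kinase pathway lists in the 4 comparisons, with the list's median as an orange line, bounds drawn at their value, and dashed lines at 2-fold; the x axes differ between panels. The ERK-induced genes lie mostly to the right in both responses, and the listed MAP kinase phosphatases are spread on both sides of 0 in all 4 panels.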

How the data were processed

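RNA from 4 cultures was read on 4 Agilent 1-colour arrays of 1 slide and 1 scan, with 500 ng of total RNA labelled for each, per the labels. The authors deposited, for each spot, a background-subtracted intensity (Feature Extraction 10.7.3.1) and flags for spots that were uneven, saturated or well above background. A table of log2 values that the authors deposited matched these intensities, once each array was divided by its 75th percentile, to within 0.01 for 41001 to 41026 of 41173 probes per array.

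From these, spots flagged as uneven or outlying (107 to 120 per array) were left out, repeated spots were averaged as log2 values, and each array's 75th percentile was subtracted. Of 41173 probes, 27479 (66.7%) were named by transcript accession through a RefSeq table of GRCm38.p6, used for names only. Each gene was read from its probe with the highest mean log2 signal. A value below the lowest signal well above background of its array (14.5 to 17.2) was raised to it, giving a bound, and a bound against the sign of the difference was dropped. The number of arrays, 1 per group, limits the precision. As a further scale, the median SD between probes of a gene, over 3852 genes, was 0.09 before and 0.11 after re-stimulation for the genotype difference, and 0.15 in WT and 0.14 in KO for the response.

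The members, lists and motifs were chosen with earlier results of these data known. Every member is named; of other lists, at most 4 genes per comparison with the largest differences are named, and for 3 members the 3 nearest genes. Python 3.11.15 (numpy 2.4.6, pandas 2.3.3, matplotlib 3.10.9) and R 4.3.3 (limma 3.58.1) served for the computations, and the scripts were tested on simulated data. Dusp5, Map3k8, Elk1, Kit and Cd8b1 had no named probe here. Binding data of the study were not used here.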

Additional observations from a re-analysis of the deposited data

Results flagged for a closer look

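A difference that had opposite signs in the 2 states or in the 2 genotypes drew attention for 5 members, and none of these was tested, since each rests on 4 single arrays. The value given is the response in KO minus the response in WT, on the log2 scale, which is also the genotype difference after re-stimulation minus that before it.

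For Dusp10 the genotype difference went from 0.73 to -1.20, a change of -1.92. For Dusp22 it went from 0.11 to -1.06, and the response from 0.61 in WT to -0.56 in KO, a change of -1.17 either way. For Dusp7 it went from -0.10 to 0.36, a change of 0.46. In these 3 members both effects exceeded the median SD between probes of a gene, but the earlier effects of Dusp7 and Dusp22 were within the spot error. For Dusp2 the genotype difference went from -0.05 to 0.46, a change of 0.51, and for Dusp6 the response went from -0.05 in WT to 0.19 in KO, a change of 0.25, and the first of each pair was smaller than that SD. The sign of the first of each pair turned among 8 processing alternatives for Dusp2 (-0.11 to 0.09), Dusp6 (-0.35 to 0.24) and Dusp7 (-0.16 to 0.04).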

How the results depend on the processing

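No paired analysis was possible because each group had 1 array. Of 334 recomputed values of single members, 262 stayed within the spread between probes, and no called difference changed sign. Many of the 262 were fixed by the setting. The authors' log2 table had the same scaling, and the mean over probes cannot change a member with 1 probe. Tightening or dropping the filter cannot change a member well above background on every array. The share that stayed is therefore no measure of how stable the values are. Of 42 member differences, 7, all under 2-fold, had both signs among their alternatives. Among 104 recomputed counts and medians, 14 moved. With normexp correction and quantile normalization the count of members at least 2-fold higher in KO was 0 before and 0 after re-stimulation, the count lower after it was 1, and the median WT response was 0.65. The offset of 50 in that correction shrinks the folds of dim signals. Calls of dim probes lost there, such as those of Dusp14 and Dusp16, were therefore partly fixed by the setting. The requirement that both arrays be well above background gave 0 members higher in KO after re-stimulation. The count of members lower in KO after it was 1 with scaling to Cd3e, 1 with the mean over probes and 0 with the 3-fold rule. Scaling to Cd3e gave medians of 0.19 for the genotype difference before re-stimulation, 1.71 for the WT response and 0.55 for the KO response. Scaling to the median gave 1.12 for the WT and 0.026 for the KO response, and no filter and no floor gave 0.89 in WT. Under scaling to Cd3e the all-gene median shifted by 0.14 before re-stimulation, 0.30 in the WT response and 0.26 in the KO response, and scaling to the median moved the responses by -0.29 and -0.26. Those scalings put the higher genes at 71.5% and 29.1% of all genes past 2-fold in the WT response, against 49.3%. Signals of Dusp14 on WT (-) and of Dusp16 lay near the lower limit of what the arrays measured.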
